A study of Mus musculus with 6 samples.

Results

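The 10 genes described here are cell cycle cyclins and cyclin-dependent kinases (CDKs): the D-type cyclins Ccnd2 and Ccnd3 with the kinase Cdk4, the E-type cyclins Ccne1 and Ccne2 with the kinase Cdk2, the A-type cyclin Ccna2, and the B-type cyclins Ccnb1 and Ccnb2 with the kinase Cdk1. They were taken by gene symbol from the 23183 symbols listed for every library, and all 10 were found. The values came from mRNA sequencing of CD4+CD8+ double positive (DP) thymocytes, the most abundant stage of T cell development in the thymus, sorted from C57BL/6 mice aged 6 weeks. The WT group had 3 libraries from NSRP1f/f mice, whose floxed Nsrp1 alleles were intact, and the NSrp70-cKO group (cKO below) had 3 libraries from NSRP1f/fCD4Cre mice. Both groups carried the floxed alleles, and in the cKO the Cre recombinase was driven by CD4 regulatory sequence, so that deletion starts in late double negative thymocytes, before the DP stage. Nsrp1 encodes NSrp70, a nuclear speckle protein that regulates alternative splicing. The comparison addressed how loss of NSrp70 changes the levels of these mRNAs in DP thymocytes.

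A CDK is active only when a cyclin is bound to it, and the order in which cyclins are made and destroyed drives the cell cycle forward. D-type cyclins with CDK4 or CDK6 act in G1 by phosphorylating the retinoblastoma protein, cyclin E with CDK2 acts at the entry into S phase, cyclin A with CDK2 and CDK1 acts in S and G2, and cyclin B with CDK1 triggers mitosis. In the thymus, Ccnd3 is needed for the proliferation that follows a successful pre-T cell receptor signal, and most DP thymocytes after that burst are small resting cells.

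Genes of the G2 and M phases are known to carry the cell cycle homology region (CHR) and CCAAT boxes in their promoters, bound by the DREAM and MuvB complexes and by NF-Y, whereas G1/S genes often carry E2F sites. RefSeq (GRCm38.p6) gave a promoter for 7 of the 10 genes. The 250 bases before the start are shown for the G2/M genes Cdk1 and Ccnb2 and for Cdk2, the gene of the set whose cKO libraries were most divided, each 5′ to 3′ on the strand of the gene. Capitals mark matches on either strand. The CHR was searched for as TTTGAA, the box of NF-Y as CCAAT, and E2F sites as TTCCCGC or, in another form, as TTGGCGC. The Cdk1 window is chr10:69352913-69353162, minus strand, and the end of it nearest the start lies inside the GENCODE gene. The Ccnb2 window is chr9:70421555-70421804, minus strand. The Cdk2 window is chr10:128705052-128705301, minus strand.
Cdk1: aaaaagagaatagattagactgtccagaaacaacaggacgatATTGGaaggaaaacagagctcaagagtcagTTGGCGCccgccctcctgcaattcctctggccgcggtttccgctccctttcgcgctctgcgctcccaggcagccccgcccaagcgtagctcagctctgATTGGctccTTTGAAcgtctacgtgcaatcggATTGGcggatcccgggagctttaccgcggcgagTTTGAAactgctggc
Ccnb2: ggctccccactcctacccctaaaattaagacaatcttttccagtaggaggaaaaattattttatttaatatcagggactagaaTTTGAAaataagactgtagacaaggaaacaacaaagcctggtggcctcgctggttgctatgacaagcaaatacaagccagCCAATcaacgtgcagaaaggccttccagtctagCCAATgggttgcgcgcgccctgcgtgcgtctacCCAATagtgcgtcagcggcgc
Cdk2: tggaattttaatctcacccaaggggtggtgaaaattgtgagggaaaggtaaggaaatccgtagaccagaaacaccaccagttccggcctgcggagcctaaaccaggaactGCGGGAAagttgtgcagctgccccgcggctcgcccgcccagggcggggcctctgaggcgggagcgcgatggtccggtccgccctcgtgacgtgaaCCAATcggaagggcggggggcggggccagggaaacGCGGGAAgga

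The Cdk1 window held 2 CHR matches, 3 CCAAT boxes and 1 TTGGCGC, and the Ccnb2 window held 1 CHR match and 3 CCAAT boxes. In Ccnb2 the CCAAT boxes lay 33 bases apart, and the pair nearest the start in Cdk1 lay 32 bases apart. The window of the G2/M gene Ccnb1, which is not printed, held no TTTGAA, and other forms of the CHR were not searched for. It held 2 CCAAT boxes 32 bases apart and 1 TTGGCGC that overlapped the first of them. The Cdk2 window held no CHR match, 1 CCAAT box and 2 TTCCCGC matches. Among 32851 promoter windows of this length, 16.0% held a CHR match and 1.81% held 2 or more, 33.9% held a CCAAT box and 10.1% held 2 or more, 3.82% held TTCCCGC and 0.180% held 2 or more, and 1.97% held TTGGCGC. None of these letters was found in the windows of Ccne1 and Cdk4, and in Ccnd3 only 1 of 2 start sites had a match, a single CCAAT box. Ccna2, Ccnd2 and Ccne2 had no entry. A match describes these letters in this window only.

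Several properties of the libraries bear on every value. The estimated depth was 20.7 to 20.8 M fragments (M, mega) in WT and 13.1 to 20.6 M in the cKO, and the pairwise spread was 1.22 to 1.28 times counting noise between WT libraries but 5.10 to 11.5 times between cKO libraries. Nothing in the labels says whether the libraries of a group came from separate mice, so the p-values measure only the spread between these libraries. The targeted gene, listed under its older symbol Ccdc55, had FPKM values of 20.2, 20.7 and 21.1 in WT and 17.7, 15.8 and 15.0 in the cKO, a fall of 0.34 on the log2 scale (SE 0.0772, limma adjusted p = 0.00675). The whole-gene value does not resolve the deleted part. The Y chromosome genes Uty, Kdm5d, Eif2s3y and Ddx3y, 4 in all, had values above 0 in every cKO library and no value above 0 in WT, and Xist was at 69.8 or more in WT and at 5.44 or less in the cKO, so genotype and the sex of the mice cannot be told apart. As this is bulk RNA, more or fewer cycling cells and more or less RNA per cell cannot be told apart either.

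Most of these genes had higher mRNA levels in the cKO. By limma on log2(FPKM + 1), with Benjamini-Hochberg adjustment over the 10326 genes tested and a threshold of 0.05, 8 of the 10 rose, Ccnd2 fell, and Cdk2 did not pass. Of all genes tested, 35.8% rose and 29.8% fell, 65.5% in either direction, so a call alone is a common result in this comparison. In the same 8 genes every cKO library was above every WT library, which held for 39.2% of all genes, and in Ccnd2 every cKO library was below, which held for 33.3%. The median log2 fold change of the 10 genes was 0.65, against 0.04 over all genes tested. With equal FPKM totals 4 rose and 2 fell, Cdk2 among the latter, and the median was 0.10 against -0.45 over all genes. The sizes fell into 3 ranges, with Ccne2, Ccnb1, Cdk1 and Ccna2 between 1.06 and 1.42, Cdk4, Ccnb2, Ccnd3 and Ccne1 between 0.44 and 0.66, and Ccnd2 at -1.80 on this scale. From the largest rise down, Ccne2 ranked 88, Ccnb1 113, Cdk1 253 and Ccna2 324 among all genes tested, and Ccnd2 ranked 10294 of 10326.

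**Figure D1:**
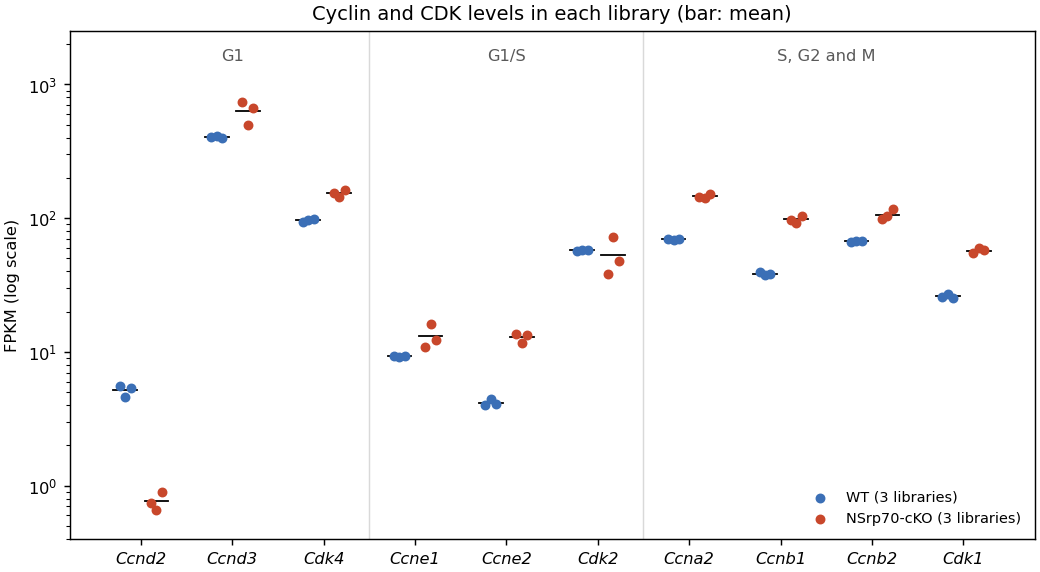
FPKM of each cyclin and CDK gene in each of the 6 libraries, on a log scale, grouped by the phase in which the protein acts (points are libraries, bars are means of 3). Ccnd2 is below 1 FPKM in all 3 cKO libraries, the 3 Cdk2 points of the cKO lie on both sides of WT, and in the other 8 genes all cKO points lie above WT.

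The D-type cyclins moved in opposite directions. Ccnd2 (chr6:127125162-127152193, minus strand; gene coordinates here and below are GENCODE on GRCm38) was at 5.54, 4.59 and 5.41 FPKM in WT and at 0.737, 0.653 and 0.899 FPKM in the cKO. The groups stood far apart and each was narrow. The mean was 6.79-fold lower in the cKO. On the log2(FPKM + 1) scale, which understates changes of low genes, the difference was -1.80 (SE 0.101, adjusted p = 8.29e-05 by limma). Being below 1 FPKM in the cKO, Ccnd2 met the filter of 1 FPKM in at least 3 libraries only through WT. A gene at such cKO levels can be tested there only if it fell. Without the filter the difference was also -1.80 (adjusted p = 0.000347 by limma). With the longest coding transcript as the length, the cKO values stood for about 59 to 95 fragments per library and the WT values for 582 to 706, so the fall was not at the limit of detection.

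Ccnd3 (chr17:47505051-47599691, plus strand) was the most abundant of the 10 genes per length in every library. Its FPKM was 408, 409 and 395 in WT and 737, 497 and 662 in the cKO. The cKO libraries were all above WT but unequal, with replicate 2 the lowest, and the difference was 0.62 (SE 0.154, adjusted p = 0.00959 by limma). After quantile normalization it was 0.01 (adjusted p = 0.956) and with equal FPKM totals 0.06 (adjusted p = 0.609), so the rise of this gene rests on the scaling. After correction for GC content and length it was 0.96 (adjusted p = 0.00186).

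Cdk4 (chr10:127063534-127067920, plus strand), the catalytic partner of the D-type cyclins, was at 94.5, 97.4 and 98.3 FPKM in WT. In the cKO it was at 154, 143 and 163 FPKM, above WT in every library. It rose by 0.66 (SE 0.0755, adjusted p = 0.000448 by limma), to a mean 1.59 times that of WT, but with equal FPKM totals the difference was 0.10 and not called (adjusted p = 0.208). With size factors or equal FPKM totals, Ccnd3 and Cdk4 thus moved by like amounts. They did not after quantile normalization (0.01 and 0.28) or after correction for GC content and length (0.96 and 0.62). Their ratio within a library was 4.17 in WT and 4.07 in the cKO (geometric means, log2 difference -0.04, exact two-sided permutation p = 0.8). The cKO libraries ranged from 3.47 to 4.78, so the ratio is not shown to be equal. Libraries of the 2 genotypes overlapped in this ratio.

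Both E-type cyclins rose. Ccne2 (chr4:11191351-11204779, plus strand) was the least abundant of the 10 genes in every WT library, at 4.05, 4.43 and 4.08 FPKM. In the cKO it was at 13.7, 11.7 and 13.4 FPKM, a mean 3.09 times that of WT and the largest rise of the set (log2 fold change 1.42, SE 0.0853, adjusted p = 9.14e-05 by limma). After correction for GC content and length it was 1.10, below the 1.16 of Cdk1. Over 5622 nucleotides it shares its locus with Ints8 on the opposite strand, which was at 18.5 to 19.0 FPKM in WT and 25.7 to 26.8 in the cKO, and the strand setting of the counting is not stated.

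Ccne1 (chr7:38097984-38107534, minus strand) was at 9.35, 9.12 and 9.39 FPKM in WT and at 10.8, 16.2 and 12.3 FPKM in the cKO. All cKO values were above WT, replicate 2 the most. The difference was 0.44 (SE 0.131, adjusted p = 0.0211 by limma), and it missed the threshold in each fit without 1 WT library (adjusted p between 0.0544 and 0.0645 without replicates 1, 2 or 3) and after correction for GC content and length (0.34, adjusted p = 0.0809). When libraries were given equal FPKM totals, its direction turned (-0.07, adjusted p = 0.724). The ratio of Ccne2 to Ccne1 was 0.432 to 0.486 in the WT libraries and 0.718 to 1.27 in the cKO libraries.

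Cdk2 (chr10:128697939-128705031, minus strand), the kinase partner of cyclins E and A, was the exception among the kinases. Its FPKM was 57.4, 58.2 and 58.1 in WT, with almost no spread, and 38.4, 72.9 and 48.0 in the cKO. Replicates 1 and 3 of the cKO were below WT and replicate 2 was above it. The difference was -0.17 (95% interval -0.66 to 0.31, adjusted p = 0.48 by limma), an interval that does not show the level to be the same. Without cKO replicate 2 the difference was -0.41 (adjusted p = 0.00654), and without cKO replicate 1 it was 0.03 (adjusted p = 0.87). Replicate 2 was also the highest in the cKO for Cdkn1b, a CDK inhibitor of the CIP/KIP family, at 157 FPKM against 83.8 and 80.2. This library stood apart beyond these 2 genes. Its pairwise spread was 11.5 times counting noise from replicate 1 and 8.96 times from replicate 3, against 5.10 between replicates 1 and 3.

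The A- and B-type cyclins and Cdk1 rose together. Ccna2 (chr3:36564865-36572150, minus strand) was at 69.4, 69.0 and 70.5 FPKM in WT and at 144, 142 and 153 FPKM in the cKO. The libraries of each genotype were close to each other and the groups did not overlap. The mean of the cKO was 2.10 times that of WT (log2 fold change 1.06, SE 0.0646, adjusted p = 9.38e-05 by limma).

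Ccnb1 (chr13:100778650-100786570, minus strand), the main mitotic cyclin, was at 39.4, 37.7 and 38.6 FPKM in WT and at 96.9, 92.5 and 104 FPKM in the cKO, 2.54 times as high by the means. Its difference was 1.32 (SE 0.0704, adjusted p = 8.13e-05 by limma). Ccnb2 (chr9:70407692-70421547, minus strand), whose protein associates with the Golgi, was at 66.4, 67.9 and 67.9 FPKM in WT and at 98.1, 105 and 117 FPKM in the cKO. It rose by 0.65 (SE 0.0788, adjusted p = 0.000547 by limma), but with equal FPKM totals the difference was 0.09 and not called (adjusted p = 0.357), and after correction for GC content and length it was 0.29 (adjusted p = 0.00497). Ccnb1 was 35.7% to 37.3% of the summed B-type FPKM in WT and 46.9% to 49.7% in the cKO.

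Cdk1 (chr10:69335146-69352938, minus strand), the only CDK that is essential for mitosis, was at 25.7, 27.0 and 25.4 FPKM in WT and at 54.5, 59.8 and 57.9 FPKM in the cKO. No library of one genotype came near the other. The difference was 1.11 (SE 0.0629, adjusted p = 8.56e-05 by limma), a mean 2.20 times that of WT. Cdk1 was 14.0% to 14.8% of the summed FPKM of Cdk1, Cdk2 and Cdk4 in WT and 21.5% to 22.1% in the cKO.

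**Figure D2:**
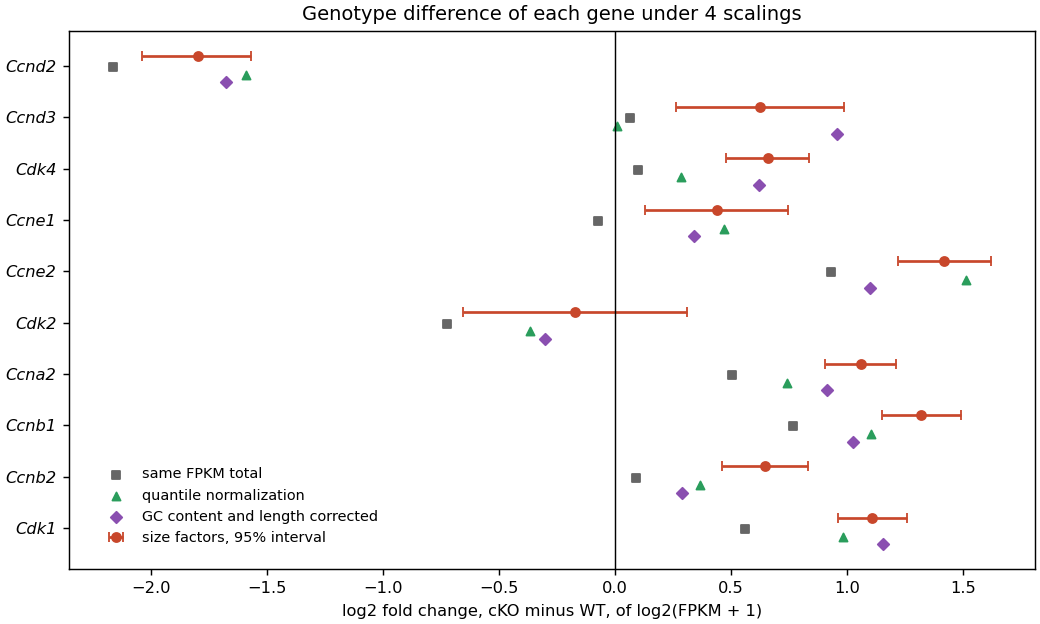
Log2 fold change (cKO minus WT, of log2(FPKM + 1)) of each gene with its 95% interval from limma, and the same difference under 3 other scalings of the libraries. Ccnd2 stays below 0 and Ccne2, Ccna2, Ccnb1 and Cdk1 stay at or above 0.50 in all 4, whereas with equal FPKM totals Ccnd3, Ccnb2 and Cdk4 lie at 0.06, 0.09 and 0.10 and Ccne1 lies below 0.

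The order of levels per length was the same in the 3 WT libraries, from Ccnd3 through Cdk4, Ccna2, Ccnb2, Cdk2, Ccnb1, Cdk1, Ccne1 and Ccnd2 to Ccne2. Ccna2 and Ccnb2 were neighbours at means of 69.6 ± 0.770 and 67.4 ± 0.898 FPKM (SD, n = 3). In the cKO the first 4 places were the same, but Ccnb1 moved above Cdk2 in all 3 libraries and Ccnd2 took the last place in all 3. Cdk1 was above Cdk2 in cKO replicates 1 and 3, where Ccne2 was also above Ccne1, but neither was so in replicate 2.

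Ratios of deposited FPKM within a library do not depend on a single factor per library, though quantile normalization and the correction for GC content and length would move them. Between genotypes, 8 were compared. With 3 libraries against 3 the smallest two-sided p of an exact permutation test is 0.1, so no ratio could pass a threshold of 0.05. All but 1 of the 8 reached that p (adjusted over the 8, 0.114), each with no overlap between genotypes. Among all single genes tested, every cKO library was above every WT library in 39.2% and below in 33.3%. Separation alone is therefore a common result in this comparison. Ccnd2 over Ccnd3 fell furthest, from 0.0128 to 0.00121 by geometric means (log2 difference -3.40). Ccna2 over Cdk2 went from 1.20 to 2.85 (1.25), Ccne2 over Ccne1 from 0.450 to 0.996 (1.15) and Ccnb1 over Ccnb2 from 0.572 to 0.921 (0.69). Among the kinases, Cdk1 over Cdk4 went from 0.269 to 0.374 (0.48) and Cdk2 over Cdk4 from 0.599 to 0.334 (-0.84), the latter with 0.249, 0.510 and 0.294 in the 3 cKO libraries. Ccnb1 over Cdk1, a cyclin and its own kinase, moved least of these, from 1.48 to 1.71 (0.20).

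**Figure D3:**
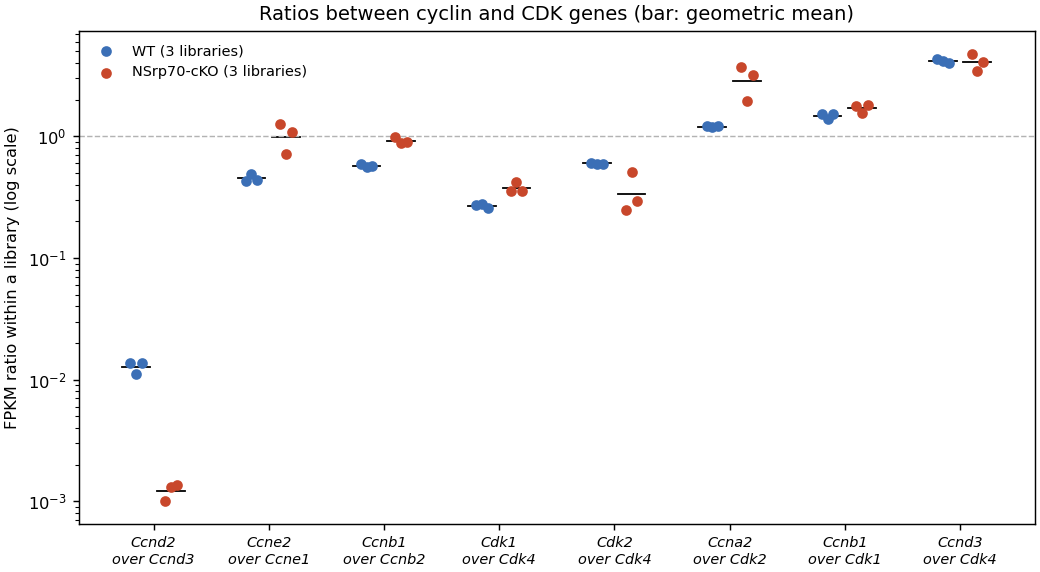
FPKM ratio of 8 pairs of cyclin and CDK genes within each library, on a log scale (points are libraries, bars are geometric means of 3). Ccnd3 over Cdk4 overlaps between genotypes, and no other pair does.

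The other cell cycle cyclins and CDKs moved less uniformly. Of 9 further genes, 6 were tested, of which 3 rose and 1 fell (median 0.22, against 0.04 for all genes), but with equal FPKM totals 2 rose and 3 fell, and after correction for GC content and length 2 rose and 2 fell (median -0.07). Mnat1, which assembles the CDK-activating kinase, went from 14.7 to 15.8 FPKM in WT to 25.9 to 33.9 in the cKO (0.89, adjusted p = 0.000503 by limma), and Ccnf, the substrate receptor of an SCF ubiquitin ligase, from 21.4 to 22.0 up to 33.3 to 40.8 (0.78, adjusted p = 0.00048). Ccnh, the cyclin of the CDK-activating kinase, also rose (0.43), but was at -0.11 with equal FPKM totals and at -0.06 after correction for GC content and length, not called in either. The one that fell was Cdk3-ps, a pseudogene below 2 FPKM throughout (-0.88, adjusted p = 0.0162), and its call was lost after quantile normalization (-0.64, adjusted p = 0.0616) and without WT replicate 1 or 2 or cKO replicate 1 or 3 (adjusted p from 0.051 to 0.0555). Cdk6, the other partner of D-type cyclins, was at 5.82 to 6.43 FPKM in WT and 4.78 to 6.00 in the cKO (-0.21, adjusted p = 0.0939), and Cdk7 differed by 0.02 (adjusted p = 0.851). Ccnd1, the third D-type cyclin, was too low to test, at 0.986 to 1.38 FPKM in WT and 0.504 to 0.767 in the cKO, and Ccna1 and Ccnb3 were listed at 0 in every library. Ccnh, Cdk6, Cdk7, Ccnd1, Ccna1 and Ccnb3 were named after their values were seen.

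Cyclins and CDKs that act in transcription and splicing rather than the cell cycle went mostly the other way. Of 13 tested, 8 fell and 3 rose (median -0.34). Cdk9, the kinase that releases paused RNA polymerase II, fell from 38.8 to 40.1 FPKM in WT to 18.8 to 21.7 in the cKO (-0.96, adjusted p = 0.000124 by limma), and Ccnk, the cyclin of Cdk12 and Cdk13, fell from 25.3 to 26.4 down to 14.2 to 15.6 (-0.75, adjusted p = 0.000178). Ccnc of the Mediator kinase module rose (0.42, adjusted p = 0.00386), as did Ccnt1, the cyclin partner of Cdk9 (0.29, adjusted p = 0.0434), but with equal FPKM totals both were below 0 and not called (-0.11 and -0.24). The call of Ccnc was also lost after correction for GC content and length (0.15, adjusted p = 0.125), and that of Ccnt1 without each WT library in turn (adjusted p from 0.0906 to 0.126 without replicates 1, 2 or 3). The remaining riser was Cdk19 (0.16), named after its values were seen, which fell with equal FPKM totals (-0.39, adjusted p = 0.00651). Of 9 tested genes in a last group of cyclins and CDKs with other roles, 5 fell and 1 rose (median -0.38). Cdk16 was at 21.2 to 21.8 FPKM in WT and 6.80 to 10.1 in the cKO (-1.29, adjusted p = 0.000242), Cdk20 fell (-0.58, adjusted p = 0.00211), and Ccng1, a target of p53, rose (0.99, adjusted p = 0.000146).

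Among the inhibitors of CDKs, 5 of 7 were tested and 3 rose (median 0.51), but with equal FPKM totals 1 rose and 1 fell. Cdkn2c, an INK4 inhibitor of CDK4 and CDK6, was at 45.2 to 46.3 FPKM in WT and 79.5 to 94.8 in the cKO (0.89, adjusted p = 0.000196 by limma). Cdkn2d of the same family was at 118 to 121 and 155 to 186 FPKM (0.51, adjusted p = 0.00158), though it was not called with equal FPKM totals (-0.05) or after quantile normalization (0.12). Cdkn1a, a p53 target of the CIP/KIP family, went from 1.25 to 1.43 FPKM up to 2.33 to 2.84 (0.60, adjusted p = 0.00118), and was not called with equal FPKM totals (0.24, adjusted p = 0.111). Cdkn1b differed by -0.12 (adjusted p = 0.675) and Cdkn1c by -0.07 (adjusted p = 0.764). Cdkn2a and Cdkn2b were under 0.1 FPKM in every library and not tested.

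Of 6 genes listed as phosphatases and subunits of CDKs, 4 rose and 1 fell (median 0.98). After correction for GC content and length 3 rose and the other 3 did not pass (median 0.18), and with equal FPKM totals 3 rose and 2 fell (median 0.42). Cdkn3 rose from 13.8 to 16.1 FPKM up to 42.6 to 53.5 (1.63, adjusted p = 0.000111 by limma). Despite its place in a list of activators, it encodes a phosphatase that removes the activating phosphate from CDKs. Cks1b, a small CDK-binding subunit, rose by 0.96 (adjusted p = 0.000176), and Cdc25b, a phosphatase that activates CDKs, fell by 0.24 (adjusted p = 0.0134). The call of Cdc25b was lost without each WT library in turn (adjusted p from 0.05 to 0.0693 without replicates 1, 2 or 3) and after correction for GC content and length (-0.04, adjusted p = 0.618). The inhibitory kinases split, with Wee1 higher (0.38, adjusted p = 0.00941, but -0.12 and not called with equal FPKM totals) and Pkmyt1, which phosphorylates CDK1 at the membrane, lower (-0.82, adjusted p = 0.0029, but -0.42 and not called after correction for GC content and length).

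Of 20 genes of the ubiquitin ligases that degrade cyclins and CDK inhibitors, 12 rose and 1 fell (median 0.29), but with equal FPKM totals 1 rose and 7 fell. Skp2, which targets Cdkn1b for degradation, was at 6.94 to 7.12 FPKM in WT and 15.1 to 15.5 in the cKO (1.02, adjusted p = 8.63e-05 by limma). Fbxo5, an inhibitor of the anaphase-promoting complex, rose by 0.71 (adjusted p = 0.000242, but 0.16 and not called with equal FPKM totals), and Fzr1, an activator of that complex, was the one that fell (-0.55, adjusted p = 0.00063, but -0.01 and not called after correction for GC content and length). Among 19 genes of the retinoblastoma, E2F and DREAM/MuvB families 8 rose and 5 fell (median -0.06), with 0 and 11 with equal FPKM totals. E2f4 fell from 72.5 to 73.7 FPKM down to 35.2 to 43.9 (-0.91, adjusted p = 0.000248) and Tfdp2 fell by 0.40 (adjusted p = 0.00145). Lin54, the CHR-binding subunit of MuvB, rose by 0.49 (adjusted p = 0.00074) and Tfdp1 by 0.52 (adjusted p = 0.000441), but neither was called with equal FPKM totals, where Tfdp1 was at -0.03.

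Markers of cycling cells rose beside the cyclins. Of 16 S phase markers 14 rose and 1 fell (median 1.01), and all 16 mitosis markers rose (median 1.01). Cdc45 and Cdc6, which act in the start of replication, rose by 1.09 (adjusted p = 8.13e-05 by limma) and 1.14 (adjusted p = 0.000111), and the mitotic genes Aurka and Cenpe by 1.18 (adjusted p = 8.06e-05) and 1.02 (adjusted p = 9.89e-05). Cdt1, which licenses replication origins, fell by 0.68 (adjusted p = 0.000403), and Ung did not pass (-0.00145). With the same FPKM total 12 of the 16 genes in each list still rose and 2 fell. The summed FPKM of the mitosis markers was 749 to 767 in WT and 1426 to 1597 in the cKO. The part that a larger share of cycling cells has in the rise of the cyclins was not tested.

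**Figure D4:**
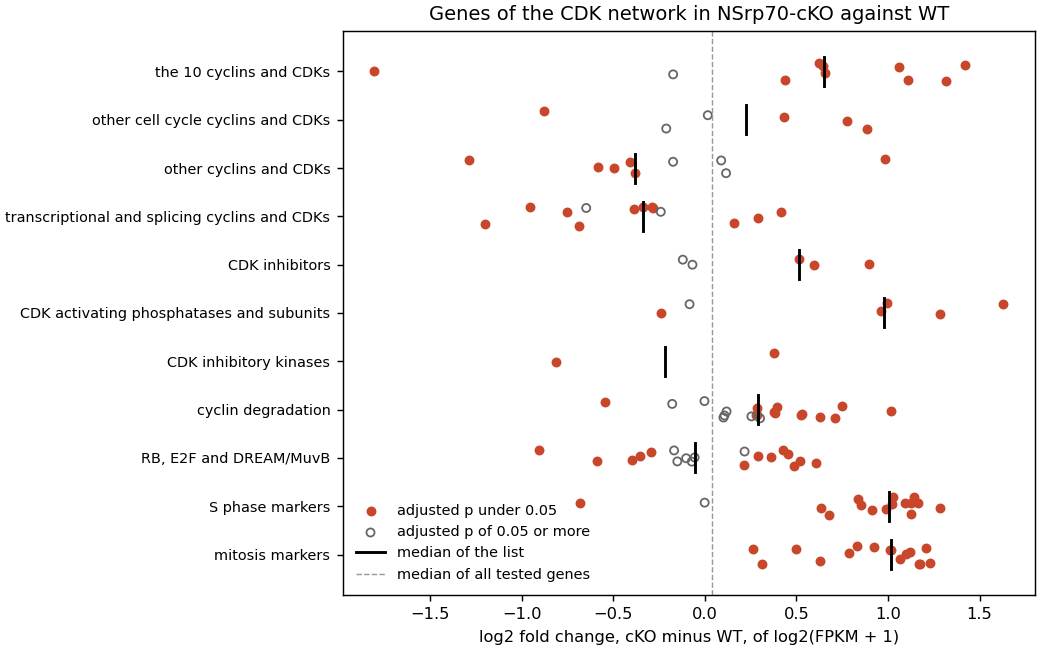
Log2 fold change (cKO minus WT, of log2(FPKM + 1)) of every tested gene in 11 lists around the CDKs. Filled points passed an adjusted p of 0.05 by limma, black bars are list medians, and the dashed line is the median of all genes tested. The S phase and mitosis lists have medians of 1.01, and the transcriptional and splicing cyclins and CDKs have a median of -0.34.

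The 5 tested genes whose profile over the 6 libraries was nearest to that of Cdk1, by the Euclidean distance of log2(FPKM + 1) values centred on the WT mean, were Xlr (distance 0.106), Ncapg2 (0.116), Ect2 (0.128), Rpp30 (0.136) and Sgol2a (0.137). Of the 5, Ncapg2 encodes a condensin II subunit, Ect2 an exchange factor for cytokinesis and Sgol2a a protector of centromeric cohesion. No mitotic role is claimed here for Xlr, the nearest, or for Rpp30. The log2 fold changes of the 5 lay between 1.06 and 1.13. With 6 libraries in 2 genotypes, such a likeness mostly restates a like difference between genotypes.

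The markers of the sorted stage were present at high levels in all libraries, with Cd4 at 486 to 723 FPKM and Cd8a at 680 to 1163. Of 10 DP markers 7 rose and 2 fell, but after quantile normalization 1 rose and 5 fell. Rag2, of the recombinase of antigen receptor genes, rose by 0.56 (adjusted p = 0.000618 by limma, not called with equal FPKM totals) and the co-receptor gene Cd8a by 0.68 (adjusted p = 0.00134, but -0.05 and not called after quantile normalization). Arpp21 fell by 0.24 (adjusted p = 0.0346), a call that was lost without any 1 library other than cKO replicate 2 (adjusted p from 0.0549 to 0.123). Of 8 markers of mature single positive (SP) thymocytes 7 fell, and the summed FPKM of the list was 169 to 172 in WT and 135 to 151 in the cKO. S1pr1, the receptor for thymic exit, was at 4.11 to 4.79 FPKM in WT and at 0.133 to 0.203 in the cKO (-2.21, adjusted p = 3.42e-05), and Slfn1 fell by 2.08 (adjusted p = 4.18e-05). Both were below 1 FPKM in every cKO library, so they met the filter of 1 FPKM in at least 3 libraries only through WT. A gene at such cKO levels can be tested only if it fell. Without any 1 WT library, 6 of the 8 markers were tested. No gene of this list was at 0 in all libraries. The low level of Ccnd2 in the cKO thus went with low SP marker levels, and the part of SP cells in it was not tested.

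Of 6 tested markers of the earlier double negative stage 4 fell and none rose, with Notch3 at -1.46 (adjusted p = 8.19e-05 by limma) and its target Dtx1 at -1.26 (adjusted p = 0.000114), and a summed FPKM of 49.1 to 50.1 in WT and 32.7 to 43.3 in the cKO. The erythroid globin genes were higher in the cKO. Hba-a1 was at 0.416 to 1.00 FPKM in WT and 3.27 to 10.4 in the cKO (2.31, adjusted p = 0.00172), and Hbb-b1 at 1.29 to 2.00 and 8.86 to 15.7 (2.39, adjusted p = 0.000213). The 6 erythroid genes listed summed to 1.98 to 2.73 FPKM in WT and 12.4 to 26.6 in the cKO. Of 5 B cell markers only Cd79b was high enough to test, and it rose (0.52, adjusted p = 0.0164, but -0.03 and not called with equal FPKM totals, nor called without WT replicate 2, cKO replicate 1 or cKO replicate 3, adjusted p from 0.0532 to 0.0586). The 5 B cell markers summed to 22.8 to 24.2 FPKM in WT and 26.6 to 39.4 in the cKO. None of 3 tested myeloid markers passed by limma, and that list summed to 6.13 to 8.01 and 5.15 to 7.35 FPKM. Of 7 stromal and epithelial markers 2 were tested and Pecam1 rose (0.23, adjusted p = 0.0181 by limma). With equal FPKM totals it was at -0.32 (adjusted p = 0.00519), and it was not called without each WT library in turn (adjusted p from 0.0572 to 0.0884 without replicates 1, 2 or 3). Krt5 and Foxn1 were at 0 throughout, and the list summed to 47.3 to 48.9 FPKM in WT and 53.3 to 57.4 in the cKO. Pecam1 alone was at 43.3 to 45.4 and 49.7 to 54.8 FPKM, so these sums mostly restate that gene. The part of these other cells in the levels of the cyclins and CDKs was not tested.

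Besides Ccne2, 5 of the genes share part of their locus with a gene on the opposite strand in the files. Exosc9, next to Ccna2 over 863 nucleotides, went from 14.1 to 15.0 FPKM up to 24.8 to 27.5, Bysl, next to Ccnd3 over 361 nucleotides, from 51.3 to 53.4 FPKM up to 63.0 to 73.0, and Tspan31, next to Cdk4 over 641 nucleotides, was at 4.42 to 6.71 FPKM throughout. Pmel, which shares 837 nucleotides with Cdk2, and 9330179D12Rik, an antisense gene in Ccnd2, were too low to test. Reads of such pairs can be told apart only if the counting used strand.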

How the data were processed

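Poly(A) mRNA of sorted DP thymocytes, 3 WT and 3 cKO libraries, had been sequenced with directional library chemistry as paired ends. Per the paper's methods, reads were trimmed with fastx trimmer and mapped to mm10 with Tophat, and the authors deposited the FPKM values (fragments per kilobase of transcript and per M mapped) that Cufflinks computed for each gene symbol and library. Versions, annotation and strand setting are not given in the sources used here. The counts that the authors tested with DESeq2 were not analysed here.

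The labels of the samples gave the genotype and the replicate number. FPKM was divided by a size factor per library (median of ratios, 1.002 to 1.015), and log2(FPKM + 1) of the 10326 genes at 1 FPKM or more in at least 3 libraries was compared between genotypes in R 4.3.3 with limma 3.58.1 (eBayes with a trend, Benjamini-Hochberg adjustment, threshold 0.05). All 10 cyclins and CDKs passed this filter, Ccnd2 only through its 3 WT libraries. In a simulation over 10326 genes, the fit recovered 90 of 100 genes with a 2-fold change and 97 of 100 with a 4-fold change, and called 10 unchanged genes. The simulated noise was normal, independent between libraries and of equal spread in both genotypes, and all other genes were unchanged. In the real libraries the spread was larger in the cKO than in WT and 65.5% of genes were called, so these rates do not carry over to them. Ratios between genes were compared with exact permutation tests in R. Depth was estimated from the FPKM step of 1 fragment at 2611 single-transcript genes, with an assumed fragment length of 200 nucleotides, and covers counting error only. Symbols were matched to GENCODE release 21, with 22110 of 23183 found directly and 646 through RefSeq synonyms.

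The genes and lists were chosen with earlier results of these data known. From each list, the text names up to 2 called genes per direction, those of lowest adjusted p, together with all CDK inhibitors tested and the 5 genes nearest to Cdk1. Some genes of the marker lists are not reported here by name. Alternatives covered the pseudocount (0.1), the filter, 3 other scalings, the spread model, WT as 1 sample, GC content and length, a replicate block, and leaving out each library.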

Additional observations from a re-analysis of the deposited data

How the results depend on the processing

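Under 17 alternatives, 150 of 167 values of the 10 genes kept their direction and their side of the threshold, 13 lost the call, 2 gained one and 2 turned. The call of Ccnd2 was kept in every alternative in which it was tested, and it was not tested without any 1 of the WT libraries, where too few libraries reached 1 FPKM. The rises of Ccna2, Ccnb1, Ccne2 and Cdk1 were called in all 17.

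Giving all libraries an equal FPKM total, which moved the median of all genes to -0.45, 4 of the 10 genes rose and 2 fell, and 903 of all genes rose and 6182 fell in place of 3693 and 3073. There Cdk2 was called lower (-0.72, adjusted p = 0.0316), Ccnd3, Cdk4 and Ccnb2 lost the call, and Ccne1 turned to -0.0747. The values of Cdkn2d (-0.0455), Ccnc (-0.11), Ccnt1 (-0.24), Wee1 (-0.12), Tfdp1 (-0.0336), Cd79b (-0.0256) and Pecam1 (-0.32) also turned. Deposited FPKM totals were 521296 to 531517 in WT and 701396 to 850548 in the cKO, and the cause of that difference was not tested. After quantile normalization Cd8a turned to -0.0506 and Cdkn1c to 0.0839, and after correction for GC content and length Cdkn1c was at 0.25, also with the replicate block. With the WT libraries counted as 1 sample, which leaves fewer samples, 5 of the 10 genes were called, of which 4 rose, and 1641 of all genes.

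Leaving out 1 library at a time gave 7 to 10 calls among the 10 genes, 7 to 8 rises and 0 to 2 falls, and 5404 to 7637 calls over all genes. In these fits Cdk2 ranged from -0.414 (without cKO replicate 2) to 0.033 (without cKO replicate 1), Cdkn1b from -0.422 (without cKO replicate 2) to 0.0485 (without cKO replicate 3), Cdkn1c from -0.18 (without cKO replicate 1) to 0.157 (without cKO replicate 2), and the log2 ratio difference of Ccnd3 over Cdk4 from -0.154 (without cKO replicate 1) to 0.0766 (without cKO replicate 2). The log2 difference of the ratio of Ccnd2 to Ccnd3 was -2.43 with log2(FPKM + 1) in place of log2(FPKM), since 1 is large beside the level of Ccnd2 in the cKO.

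With the replicate number as a block (replicate block), 9 of the 10 genes passed (8 rose, 1 fell), as did 6467 of all genes. Deviations of same-numbered libraries correlated at -0.02, 0.04 and 0.03. The spread in WT was only 1.22 to 1.28 times counting noise, which leaves little room for a shared deviation to show. These correlations therefore cannot decide whether the replicate numbers mark pairs.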
